A study of Mus musculus with 149 samples.

Results

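Ccr3, Epx and Prg2 are genes that eosinophils use, and they are described here in mouse lung across 20 groups of animals. They are 3 of the 13494 genes measured. Each gene was taken from the probe set whose platform annotation names that gene alone. There was 1 such probe set per gene (1422957_at for Ccr3, 1449136_at for Epx and 1422873_at for Prg2), so no second probe set was there to check a value against. The study gave BALB/c mice saline, a buffer or TSLP (thymic stromal lymphopoietin), a cytokine of epithelial cells that starts type 2 inflammation. The animals were either sensitized with ovalbumin (OVA) or naive, and lungs were taken 24 h or 6 h afterwards. Total RNA of 1 lung sample per animal was hybridised to 1 Affymetrix array, and 149 arrays were available, 76 from OVA-sensitized and 73 from naive mice.

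At 24 h the OVA-sensitized groups held 7 arrays after saline, 8 after 0.1% MSA, and 8, 7 and 7 after 150, 500 and 1500 ng of TSLP. At 6 h they held, in that order, 8, 8, 7, 8 and 8. The naive groups held 8, 7, 6, 6 and 8 at 24 h and 8, 6, 8, 8 and 8 at 6 h. The labels match the buffer of the design to 0.1% MSA and do not expand the abbreviation. The sources say nothing of age, sex, the route of the challenge or the sensitization schedule, nor whether OVA was given again with the challenge. Whole lung was measured, so fewer eosinophils and less of each transcript per eosinophil cannot be told apart.

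Eosinophils are granulocytes that mature in the bone marrow under IL-5 and enter the airways in allergic inflammation. Ccr3 is the surface receptor through which the eotaxins Ccl11 and Ccl24 draw eosinophils into tissue, and basophils and mast cells can carry it too. Epx encodes eosinophil peroxidase, which makes hypohalous acids, and Prg2 encodes major basic protein, which forms the core of the eosinophil granule. Transcripts of both granule proteins are most abundant in maturing eosinophils of the marrow, and mature cells carry the stored protein. The transcription factor Gata1 is required for the eosinophil lineage in mice and binds the letters GATA.

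The 250 bases before an annotated start of 2 of the genes are shown because Gata1 was measured on the same arrays and is described with the genes of eosinophil development. They are taken from RefSeq on the build GRCm38.p6, 5′ to 3′ on the strand of the gene. The Ccr3 window is chr9:124021721-124021970 on the plus strand and the Epx window is chr11:87875537-87875786 on the minus strand. The annotated span of Ccr3 is chr9:124017825-124031692, so its window lies inside the gene, before a start that is not the first base of that span. Capitals mark GATA, or TATC where it lies on the opposite strand.
Ccr3: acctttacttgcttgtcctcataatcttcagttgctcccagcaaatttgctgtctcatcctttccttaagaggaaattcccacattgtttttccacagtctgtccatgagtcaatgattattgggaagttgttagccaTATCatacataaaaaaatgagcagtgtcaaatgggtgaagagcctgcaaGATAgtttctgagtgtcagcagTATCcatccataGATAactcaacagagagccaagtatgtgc
Epx: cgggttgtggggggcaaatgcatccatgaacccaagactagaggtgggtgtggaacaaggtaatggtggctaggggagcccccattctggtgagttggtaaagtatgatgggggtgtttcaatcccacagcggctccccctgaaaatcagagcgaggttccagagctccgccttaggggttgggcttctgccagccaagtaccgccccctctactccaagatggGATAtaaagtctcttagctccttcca
The Ccr3 window held 4 matches to GATA, beginning 63 and 29 bases before the start on the gene's own strand and 112 and 41 bases before it on the opposite strand. The Epx window held 1, 26 bases before the start. The longer word AGATAA was found once in the Ccr3 window, 30 bases before the start, where it overlaps a GATA match. Of 32851 promoter windows of this length, 53.6% held GATA and 9.99% held AGATAA on either strand, so a match is common and is given as a description of the letters only.

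All levels below are RMA values on the log2 scale, and each difference is a difference of 2 such values. The levels of different probe sets are not comparable with each other. Tests are contrasts of limma fitted over all 20 groups, with 2-sided p-values adjusted by Benjamini and Hochberg over 13494 genes, and a gene is called where the adjusted p is under 0.05. All groups share 1 estimate of the spread in this fit. Naive SDs of the 3 genes were 0.077 to 0.43 and those of OVA-sensitized groups reached 1.38, and the SE pools both. As a check of the tissue label, the mean level of 7 markers of lung epithelium and endothelium lay between 12.63 and 13.15 in every array. On the scale of the whole array the 3 genes were dim: their means over all arrays stood at the 0.148th (Ccr3), 5.08th (Epx) and 2.39th (Prg2) percentile of all genes, and the files give no detection calls. Array medians were 8.97 to 9.16. Keratins of squamous gullet stood out in 6 arrays, of which none was from an OVA-sensitized lung at 24 h.

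The 3 genes were highest in OVA-sensitized lungs 24 h after saline, and differed widely between animals of the same OVA group. In OVA-sensitized lungs at 24 h, Ccr3 spanned 6.28 to 7.69 after saline (median 6.88) and 4.26 to 6.65 after 0.1% MSA (median 5.29). After TSLP it spanned 4.59 to 8.00 at 150 ng (median 5.23), 4.64 to 7.94 at 500 ng (median 6.07) and 4.68 to 5.21 at 1500 ng (median 5.17). In the same order the Ccr3 means were 6.95 ± 0.53, 5.39 ± 0.77, 5.90 ± 1.38, 6.15 ± 1.17 and 5.09 ± 0.19 (SD). The saline animals were all high, at or above 6.28, and 7 of the 8 MSA animals lay below the lowest of them. The 150 ng group fell into 3 animals above 7 and 5 animals at 5.39 or lower, while the 1500 ng animals lay close together below every saline animal.

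Epx followed the same order of groups at the top. In OVA-sensitized lungs at 24 h, Epx spanned 6.55 to 9.29 after saline (median 8.29) and 5.64 to 8.13 after 0.1% MSA (median 6.06). After TSLP it spanned 5.95 to 9.13 at 150 ng (median 7.01), 6.91 to 8.12 at 500 ng (median 7.99) and 6.19 to 7.51 at 1500 ng (median 6.48). In the same order the Epx means were 7.94 ± 1.13, 6.39 ± 0.86, 7.35 ± 1.30, 7.66 ± 0.54 and 6.67 ± 0.45 (SD). The 500 ng group lay wholly within the saline range, and the MSA and 1500 ng groups each overlapped its lower part.

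Prg2 gave the same ranking of the first 3 groups, saline then 500 ng then 150 ng. In OVA-sensitized lungs at 24 h, Prg2 spanned 6.65 to 9.15 after saline (median 8.30) and 5.07 to 7.81 after 0.1% MSA (median 6.33). After TSLP it spanned 5.70 to 8.96 at 150 ng (median 7.05), 6.58 to 8.79 at 500 ng (median 7.91) and 6.21 to 7.31 at 1500 ng (median 6.75). In the same order the Prg2 means were 7.88 ± 0.94, 6.39 ± 0.88, 7.27 ± 1.26, 7.73 ± 0.85 and 6.85 ± 0.38 (SD). As for Ccr3, animals 2, 4 and 6 of the 150 ng group were the 3 highest in it for Epx and Prg2.

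At 6 h the OVA-sensitized groups lay closer to one another. Ccr3 at 6 h spanned 4.26 to 5.25 after saline (median 4.63), 4.09 to 5.38 after 0.1% MSA (median 4.45), 4.09 to 5.25 at 150 ng (median 4.80), 4.21 to 7.30 at 500 ng (median 4.96) and 4.502 to 6.28 at 1500 ng of TSLP (median 5.47). Its 6 h means in the same order were 4.68 ± 0.37, 4.56 ± 0.47, 4.68 ± 0.41, 5.13 ± 1.001 and 5.32 ± 0.70 (SD). All 5 ranges overlapped, and the 7.30 came from animal 4 of the 500 ng group. Epx at 6 h spanned 6.04 to 7.77 after saline (median 6.39), 6.08 to 8.02 after 0.1% MSA (median 6.48), 5.77 to 8.46 at 150 ng (median 6.15), 5.71 to 8.86 at 500 ng (median 6.65) and 5.90 to 7.82 at 1500 ng of TSLP (median 6.62). Its 6 h means in the same order were 6.61 ± 0.67, 6.65 ± 0.63, 6.52 ± 0.93, 6.77 ± 1.01 and 6.67 ± 0.73 (SD). The Epx ranges overlapped in the same way. Prg2 at 6 h spanned 5.46 to 7.20 after saline (median 6.05), 5.22 to 7.02 after 0.1% MSA (median 5.93), 5.08 to 7.51 at 150 ng (median 5.88), 5.31 to 8.20 at 500 ng (median 6.57) and 5.73 to 7.45 at 1500 ng of TSLP (median 6.26). Its 6 h means in the same order were 6.20 ± 0.56, 6.04 ± 0.61, 6.10 ± 0.82, 6.37 ± 0.95 and 6.55 ± 0.64 (SD). The same animal 4 of the 500 ng group was the highest of its group for all 3 genes.

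In naive lungs the genes were low in every group and spread little. Ccr3 means at 24 h were 4.32 ± 0.20 after saline, 4.44 ± 0.19 after 0.1% MSA, and 4.501 ± 0.43, 4.42 ± 0.18 and 4.46 ± 0.26 after 150, 500 and 1500 ng of TSLP. At 6 h the Ccr3 means were 4.37 ± 0.26 after saline, 4.43 ± 0.23 after 0.1% MSA, and 4.12 ± 0.15, 4.53 ± 0.25 and 4.33 ± 0.13 after 150, 500 and 1500 ng of TSLP (SD). Over all 73 naive arrays Ccr3 spanned 3.92 to 4.995 with a median of 4.41, so no naive animal reached the lowest OVA saline animal at 24 h. Epx means at 24 h were 5.70 ± 0.097 after saline, 5.58 ± 0.19 after 0.1% MSA, and 5.70 ± 0.077, 5.60 ± 0.22 and 5.71 ± 0.27 after 150, 500 and 1500 ng of TSLP. At 6 h the Epx means were 6.27 ± 0.38 after saline, 5.93 ± 0.28 after 0.1% MSA, and 5.83 ± 0.23, 5.72 ± 0.17 and 5.94 ± 0.22 after 150, 500 and 1500 ng of TSLP (SD). Naive Epx spanned 5.29 to 6.91 with a median of 5.75, and its highest group was saline at 6 h. Prg2 means at 24 h were 5.29 ± 0.17 after saline, 5.37 ± 0.19 after 0.1% MSA, and 5.31 ± 0.13, 5.21 ± 0.13 and 5.43 ± 0.38 after 150, 500 and 1500 ng of TSLP. At 6 h the Prg2 means were 5.58 ± 0.14 after saline, 5.60 ± 0.12 after 0.1% MSA, and 5.46 ± 0.24, 5.47 ± 0.26 and 5.44 ± 0.11 after 150, 500 and 1500 ng of TSLP (SD). Naive Prg2 spanned 4.998 to 6.22 with a median of 5.42, which is the narrow band along the bottom of the plot of levels by group.

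**Figure D1:**
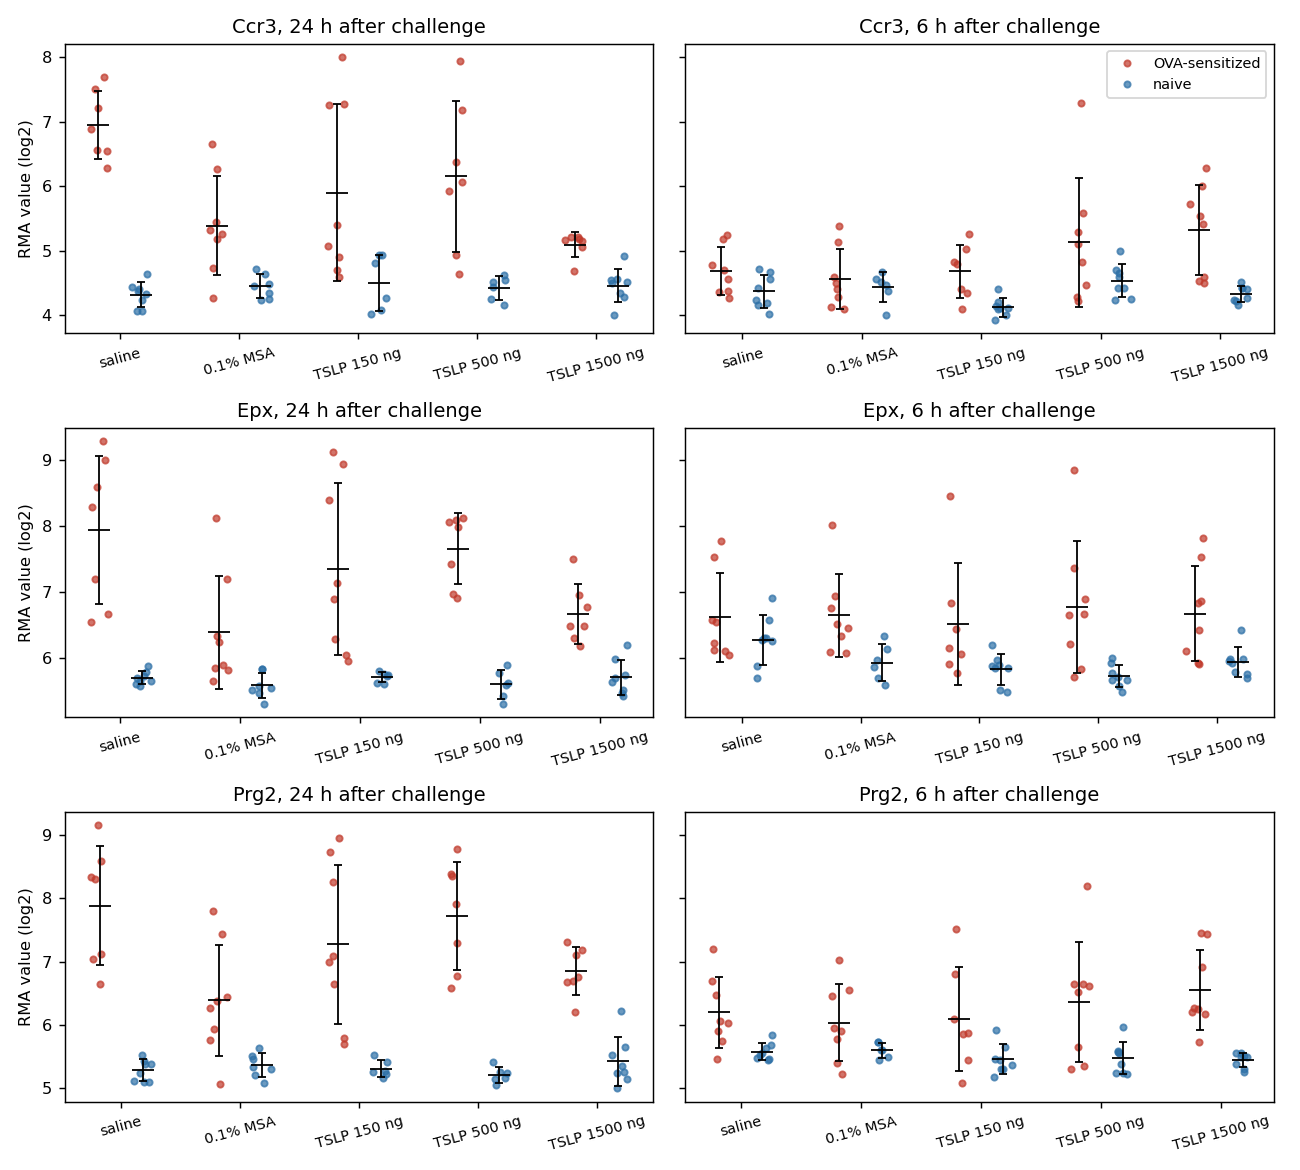
RMA values (log2) of Ccr3, Epx and Prg2 in every array, by challenge, with 24 h left of 6 h. OVA-sensitized and naive arrays have their own colours. Each point is 1 animal, and each bar is a group mean with whiskers of ± SD. OVA-sensitized lungs at 24 h reach 8.00 for Ccr3, 9.29 for Epx and 9.15 for Prg2, while naive lungs stay at or below 4.995, 6.91 and 6.22.

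When the 20 group means of each gene were put in order, the first 10 places were held by the 10 OVA-sensitized groups for all 3 genes. Saline at 24 h was first, 500 ng at 24 h came after it and 150 ng at 24 h next for each gene. Neighbours in that order were mostly closer than their spread: the gap exceeded the larger SD of the pair in 1 of 19 neighbouring pairs for Ccr3 (OVA-sensitized 1500 ng at 24 h and saline at 6 h) and in 0 of 19 for Epx and Prg2. Of 37 OVA-sensitized arrays at 24 h, 29 lay above the highest naive array for Ccr3, 20 for Epx and 31 for Prg2, and 17 did so for all 3 genes at once. At 6 h the counts were 15, 9 and 18 of 39 arrays, with 7 above for all 3. At 24 h, all 3 genes were above every naive array in 5 of 7 saline, 2 of 8 MSA, 3 of 8 150 ng, 5 of 7 500 ng and 2 of 7 1500 ng animals. The share of all genes with such counts is not given. For Epx the highest naive array was saline 6 h animal 6 at 6.91, and the next naive value was 6.58. That array had the largest 3′ to 5′ difference of beta-actin, a measure of RNA quality, of all arrays (3.42). The Epx counts and the counts for all 3 genes rest on it.

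The effect of sensitization was compared within each challenge and time. After saline at 24 h all 3 genes rose in OVA-sensitized over naive lungs, and no array of one group reached the range of the other. Ccr3 was 6.22-fold higher, a log2 difference of 2.64 (SE 0.30, adjusted p = 4.73e-12). Epx was higher by 2.25 (SE 0.33, adjusted p = 2.16e-08) and Prg2 by 2.60 (SE 0.31, adjusted p = 2.72e-11). In this comparison 14% of all genes were called higher. At 500 ng of TSLP the sets of arrays were also apart for all 3 genes, which rose by 1.73 for Ccr3, 2.06 for Epx and 2.52 for Prg2 (limma adjusted p = 1.34e-05, 1.98e-06 and 1.66e-09), with 16.8% of all genes called higher. For Ccr3 the gap at 500 ng was narrow, from 4.622 in the highest naive array to 4.639 in the lowest OVA-sensitized array. The share of all genes whose arrays were apart is not given for either challenge. At 150 ng the 3 genes rose by 1.40, 1.64 and 1.96 (limma adjusted p = 0.000228, 6.41e-05 and 6.11e-07), against 17.2% of all genes. In a fit of the 2 groups alone the Ccr3 call at 150 ng was lost (adjusted p = 0.0504).

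At 24 h after 0.1% MSA and after 1500 ng of TSLP the sensitization differences were 0.64 to 1.42, and whether they differ from those after saline was not tested. After MSA, Ccr3 rose by 0.95 (SE 0.30, adjusted p = 0.0327) and Prg2 by 1.02 (SE 0.31, adjusted p = 0.0231), and 5.03% of all genes were called higher. Epx was not called there, at 0.81 (SE 0.33, adjusted p = 0.11). The Ccr3 and Prg2 calls after MSA were lost without OVA MSA animal 8 (0.82 and 0.82, adjusted p = 0.112 and 0.119) or animal 4 (0.77 and 0.87, adjusted p = 0.136 and 0.0911), and in a fit of the 2 groups alone (adjusted p = 0.0556 and 0.0672). After 1500 ng, Prg2 rose by 1.42 (SE 0.31, adjusted p = 8.75e-05) and Epx by 0.96 (SE 0.33, adjusted p = 0.0125), beside 19.7% of all genes called higher, while Ccr3 differed by 0.64 (SE 0.30, adjusted p = 0.0787). In a fit of these 2 groups alone, whose spread was smaller, the same Ccr3 difference was called (SE 0.11, adjusted p = 0.000299). That fit called 5365 of 13494 genes in either direction. At 6 h none of the 3 genes was called after saline (23.5% of all genes called in either direction), after MSA (33.6%) or at 150 ng (46%); the 95% intervals of these 9 differences ran from -0.50 up to 1.40. At 500 ng, Epx rose by 1.05 (SE 0.32, adjusted p = 0.00722) and Prg2 by 0.89 (SE 0.30, adjusted p = 0.0159), against 18.3% of genes called higher. At 1500 ng all 3 were called, Ccr3 at 0.99 (SE 0.29, adjusted p = 0.00348), Epx at 0.74 (SE 0.32, adjusted p = 0.0489) and Prg2 at 1.11 (SE 0.30, adjusted p = 0.00156), against 17.1%. With the 3′ to 5′ difference of beta-actin as a covariate, a measure of RNA quality, Ccr3 was also called at 6 h at 150 ng (0.92, adjusted p = 0.0252) and 500 ng (0.80, adjusted p = 0.0381), and Epx at 1500 ng was not (0.77, adjusted p = 0.0501). Fits of the compared groups alone at 6 h called Prg2 after saline (0.62, adjusted p = 0.04) and Ccr3 at 150 ng (0.55, adjusted p = 0.00628). Array weights called Epx and Prg2 at 150 ng (both 0.67, adjusted p = 0.0378 and 0.0321) and Ccr3 at 500 ng (0.68, adjusted p = 0.0281). Of 13494 genes, array weights called 7769 at 150 ng and 6209 at 500 ng in either direction. Fits of the compared groups alone called 1670 after saline and 5621 at 150 ng. With beta-actin as a covariate 3384 were called at 150 ng and 2933 at 500 ng.

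**Figure D2:**
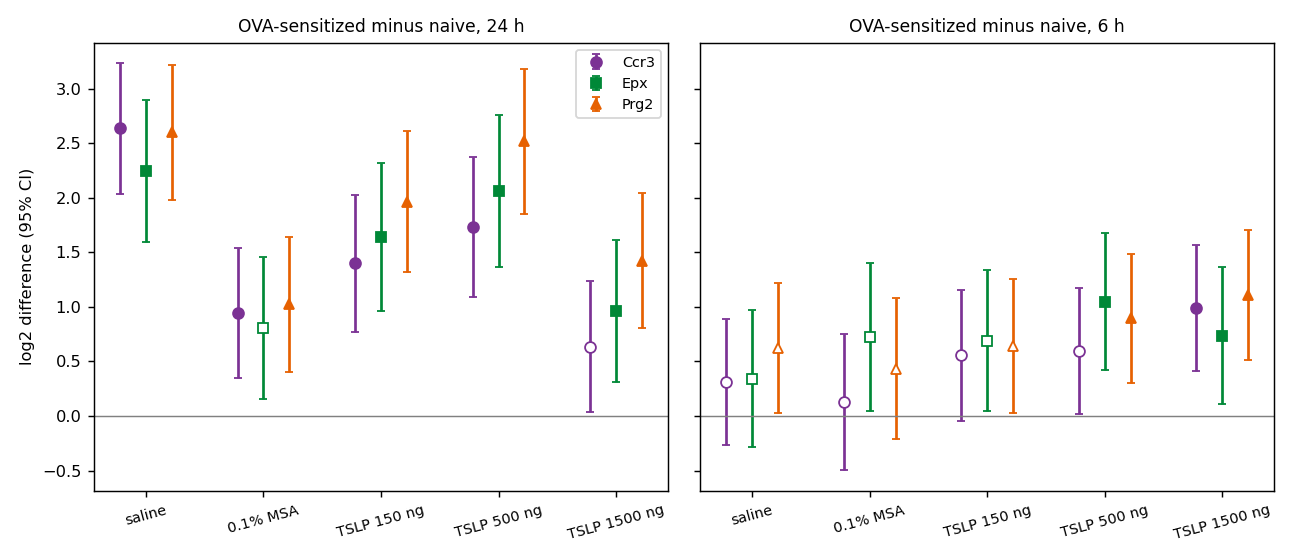
Difference between OVA-sensitized and naive lungs (log2, OVA minus naive) for each gene and challenge, with 95% confidence intervals; 24 h stands left of 6 h, and filled symbols have an adjusted p under 0.05. At 24 h the saline differences of 2.25 to 2.64 are the highest, and those after MSA lie between 0.81 and 1.02.

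The dependence of the sensitization effect on time was tested as a difference of differences. After saline, the OVA effect on Ccr3 was larger at 24 h than at 6 h by 2.33 (SE 0.42, adjusted p = 0.00219). For Prg2 the same difference was 1.98 (SE 0.43), with an adjusted p of 0.04999, at the threshold, and for Epx it was 1.90 (SE 0.46, adjusted p = 0.103). Only 0.0222% of all genes were called higher here, which is 3 genes: Ccr3, Prg2 and Rab44, a Rab GTPase gene named after its value of 0.90 (SE 0.18, adjusted p = 0.00881) was seen. The Ccr3 call held when any 1 array was left out (2.20 to 2.44), and the Prg2 call was lost in 25 of 31 such fits (1.77 to 2.19), with an adjusted p up to 0.322 without OVA saline 24 h animal 8. Epx was called in 4 of 31 (without OVA saline 24 h animals 2 or 7, or 6 h animals 3 or 4). With the beta-actin difference as a covariate, Ccr3 kept 2.25 (adjusted p = 0.00273) and Prg2 gave 1.94 (adjusted p = 0.0532). After MSA the time difference of the OVA effect was 0.82 for Ccr3, 0.084 for Epx and 0.59 for Prg2, none of them called, with 2.9% of all genes called.

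The same genes were compared between 24 h and 6 h within each challenge. In OVA-sensitized lungs after saline all 3 rose by 24 h: Ccr3 by 2.27 (SE 0.30, adjusted p = 1.13e-10), Epx by 1.33 (SE 0.33, adjusted p = 0.000232) and Prg2 by 1.69 (SE 0.31, adjusted p = 1.28e-06), while 25.3% of all genes were called higher. The 24 h and 6 h saline arrays did not overlap for Ccr3, and the share of all genes without overlap is not given. At 150 ng the rises were 1.22, 0.83 and 1.18 (limma adjusted p = 0.000515, 0.0307 and 0.00118), against 21.1% of all genes. At 500 ng, Ccr3 rose by 1.02 (SE 0.30, adjusted p = 0.0139) and Prg2 by 1.36 (SE 0.31, adjusted p = 0.00148), against 4.94% of all genes, and Epx missed the threshold at 0.89 (SE 0.33, adjusted p = 0.0538). After MSA, Ccr3 alone rose, by 0.83 (SE 0.29, adjusted p = 0.0099), where 26% of all genes did. At 1500 ng none of the 3 genes was called, with Ccr3 at -0.23, Epx at -0.0052 and Prg2 at 0.30 (95% intervals within -0.83 to 0.91), while 30.8% of all genes were called in either direction. The beta-actin difference averaged 1.27 to 1.60 log2 units in the OVA-sensitized groups at 24 h and 1.26 to 2.57 at 6 h. With it as a covariate the saline rises were 1.61, 1.45 and 1.34 (adjusted p = 0.00117, 0.00746 and 0.00859), while the calls after MSA (Ccr3 0.099), at 150 ng (0.72, 0.92 and 0.91) and of Ccr3 at 500 ng (0.79) were lost. In fits of the compared groups alone all 3 calls at 150 ng (adjusted p = 0.0589, 0.231 and 0.0755) and those of Ccr3 and Prg2 at 500 ng (adjusted p = 0.207 and 0.0607) were lost. In naive lungs none of the 3 genes was called in any challenge by the fit over all groups, where 61.2% of all genes were called after saline, 49.9% after MSA, and 13.8%, 2.21% and 11.1% after 150, 500 and 1500 ng of TSLP; the 15 differences lay between -0.58 and 0.38. Fits of the compared naive groups alone, in which the spread of OVA-sensitized lungs has no part, called 4 of these differences. After saline Epx fell by 0.58 (adjusted p = 0.00105) and Prg2 by 0.29 (adjusted p = 0.00308) at 24 h relative to 6 h, and after MSA Epx fell by 0.35 (adjusted p = 0.0368) and Prg2 by 0.24 (adjusted p = 0.0473). These fits called 7904 of 13494 genes in either direction after saline and 5396 after MSA. The beta-actin difference averaged 2.42 at 6 h and 1.37 at 24 h in naive saline lungs, and 2.14 and 1.25 after MSA. In the fit over all groups with it as a covariate, Epx and Prg2 differed by -0.47 and -0.60 after saline. After MSA they differed by -0.26 and -0.50, and none was called (limma adjusted p = 0.221 to 0.675). The fit over all groups called none of these without the covariate either. The part of the beta-actin difference in the 4 calls of the naive groups alone was not tested.

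The buffer itself was compared with saline, since it is what the TSLP groups are set against. In OVA-sensitized lungs at 24 h all 3 genes fell after 0.1% MSA relative to saline. Ccr3 fell by 1.56 (SE 0.30, limma adjusted p = 0.0114), which is 2.95-fold lower, with 8 of 8 MSA arrays below the saline mean. Epx fell by 1.56 (SE 0.33, limma adjusted p = 0.0144) and lay below the saline mean in 7 of 8. Prg2 fell by 1.496 (SE 0.31, limma adjusted p = 0.0144) with 8 of 8 below. The ranges of the groups overlapped for each gene, and 0.637% of all genes, 86 in number, were called lower. The calls were lost in a fit of these 2 groups alone, where the differences were the same and the adjusted p-values were 0.189, 0.24 and 0.239, with 0 of 13494 genes called by limma and 1784 at an unadjusted p under 0.05. The unadjusted p-values of the 3 genes there were 0.00019, 0.00491 and 0.00348. The 3 calls were also lost without OVA saline animal 8 (adjusted p = 0.0678, 0.0951 and 0.0842 for Ccr3, Epx and Prg2) or animal 6 (0.102, 0.105 and 0.105), and those of Epx and Prg2 without saline animal 3 (0.0794 each). Epx also lost its call without MSA animal 2 (0.0694). At 6 h none of the 3 genes was called in OVA-sensitized (0.356% of all genes called) or naive lungs (14.9%), nor in naive lungs at 24 h (0.00741%). These 9 differences lay between -0.35 and 0.13, with 95% intervals inside -1.02 to 0.73.

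TSLP was compared with 0.1% MSA at each dose. In OVA-sensitized lungs at 24 h the granule genes rose at the 2 lower doses and were not called at the highest. At 500 ng, Epx rose by 1.27 (SE 0.33, adjusted p = 0.00613) and Prg2 by 1.34 (SE 0.31, adjusted p = 0.00248), 2.41-fold and 2.53-fold, with 7 of 7 TSLP arrays above the MSA mean for both. Of all genes, 7.43% were called higher. Ccr3 was not called, at 0.76 (SE 0.30, adjusted p = 0.0776), but was without MSA animals 4 or 8 or 500 ng animals 3 or 8 (0.89 to 1.01, adjusted p = 0.0315 to 0.0358), and with array weights (1.15, adjusted p = 0.00117). Array weights called 2197 of 13494 genes in either direction at 500 ng. The Epx and Prg2 calls held when any 1 array of either group was left out (1.17 to 1.52 and 1.15 to 1.54), but not in a fit of the groups alone (adjusted p = 0.0566 and 0.0718). At 150 ng, Epx rose by 0.96 (SE 0.32, adjusted p = 0.0365) and Prg2 by 0.88 (SE 0.30, adjusted p = 0.0428), against 7.2% of all genes, and Ccr3 differed by 0.51 (SE 0.29, adjusted p = 0.245), or by 0.83 (adjusted p = 0.0165) with array weights. At this dose array weights called 3797 genes in either direction. Both 150 ng calls were lost without any 1 of MSA animals 1, 2, 3, 5, 6 and 7 or 150 ng animals 2, 3, 4 and 6 (lowest 0.71 for Epx and 0.64 for Prg2, both without 150 ng animal 4), and in a fit of the groups alone (adjusted p = 0.233 and 0.263). At 1500 ng the differences were -0.30 for Ccr3 (95% interval -0.89 to 0.30), 0.28 for Epx (-0.37 to 0.93) and 0.46 for Prg2 (-0.16 to 1.08), none called, while 38.5% of all genes were called in either direction.

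The same 8 MSA arrays stand in the comparison with saline and in those with TSLP, and the direction of Epx and Prg2 turns round when saline is the comparator. Against OVA-sensitized saline lungs at 24 h, Epx differed by -0.59 at 150 ng and -0.28 at 500 ng, and Prg2 by -0.61 and -0.16. Ccr3 differed by -1.05 and -0.80. None of the 3 genes was called at these doses (adjusted p from 0.187 to 0.844), where 0.0148% and 0.311% of all genes were called. At 1500 ng all 3 fell relative to saline, Ccr3 by 1.86 (adjusted p = 1.76e-06), Epx by 1.27 (adjusted p = 0.00215) and Prg2 by 1.03 (adjusted p = 0.00929), against 13.3% of all genes called lower. The 1500 and 500 ng groups were set against each other after their levels had been seen. At 24 h in OVA-sensitized lungs Ccr3 at 1500 ng fell by 1.06 (SE 0.31, adjusted p = 0.0158) relative to 500 ng and Epx fell by 0.99 (SE 0.34, adjusted p = 0.0424), and Prg2 missed the threshold at -0.88 (SE 0.32, adjusted p = 0.0599), with 5.74% of all genes called lower. Without 500 ng animal 4 the Ccr3 difference was -0.76 (adjusted p = 0.106) and without animal 1 it was -0.89 (0.0647). The Epx call was lost without any 1 of 1500 ng animals 1, 2, 3 and 5 or 500 ng animals 1, 2, 4, 5 and 7 (-0.91 to -1.03), and Prg2 was called without 500 ng animal 3 or 8 (-1.04 and -1.07).

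Over the 3 TSLP doses no slope was called for any of the 3 genes. At 24 h in OVA-sensitized lungs the slopes per 10-fold of dose were -0.79 for Ccr3 (SE 0.30, adjusted p = 0.0607), -0.66 for Epx and -0.40 for Prg2, with 15% of all genes called. At 6 h they were 0.65, 0.16 and 0.46, with 50.4% called. In naive lungs the slopes lay between -0.047 and 0.22, with 0.452% of genes called at 24 h and 0.17% at 6 h. A straight slope does not describe group means that are higher at 500 ng than at both other doses.

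At 6 h in OVA-sensitized lungs Ccr3 alone was called, at 1500 ng: it rose by 0.76 (SE 0.29, adjusted p = 0.0186) over MSA, with 6 of 8 TSLP arrays above the MSA mean and 24.8% of all genes called higher. Epx differed by 0.024 (SE 0.32, adjusted p = 0.954) and Prg2 by 0.52 (SE 0.30, adjusted p = 0.129). The Ccr3 call was lost without 1500 ng animal 5 (0.63, adjusted p = 0.0631). RNA quality moved with these groups: the 3′ to 5′ difference of beta-actin averaged 1.26 log2 units in the 1500 ng group and 2.57 in the MSA group at 6 h. With that difference as a covariate, Ccr3 changed by 0.019 (SE 0.38, adjusted p = 0.984). At 500 ng and 6 h none of the 3 genes was called (Ccr3 0.57, Epx 0.12, Prg2 0.33) where 41% of all genes were, and at 150 ng none was, with 0.163%. In naive lungs none of the 3 genes was called at any dose. At 24 h limma called 0.215%, 0% and 0.978% of all genes at 150, 500 and 1500 ng (at 500 ng, 637 genes had an unadjusted p under 0.05), and at 6 h 27.2%, 42.1% and 15.3%. The 18 naive differences lay between -0.31 and 0.13, with 95% intervals inside -0.93 to 0.82.

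**Figure D3:**
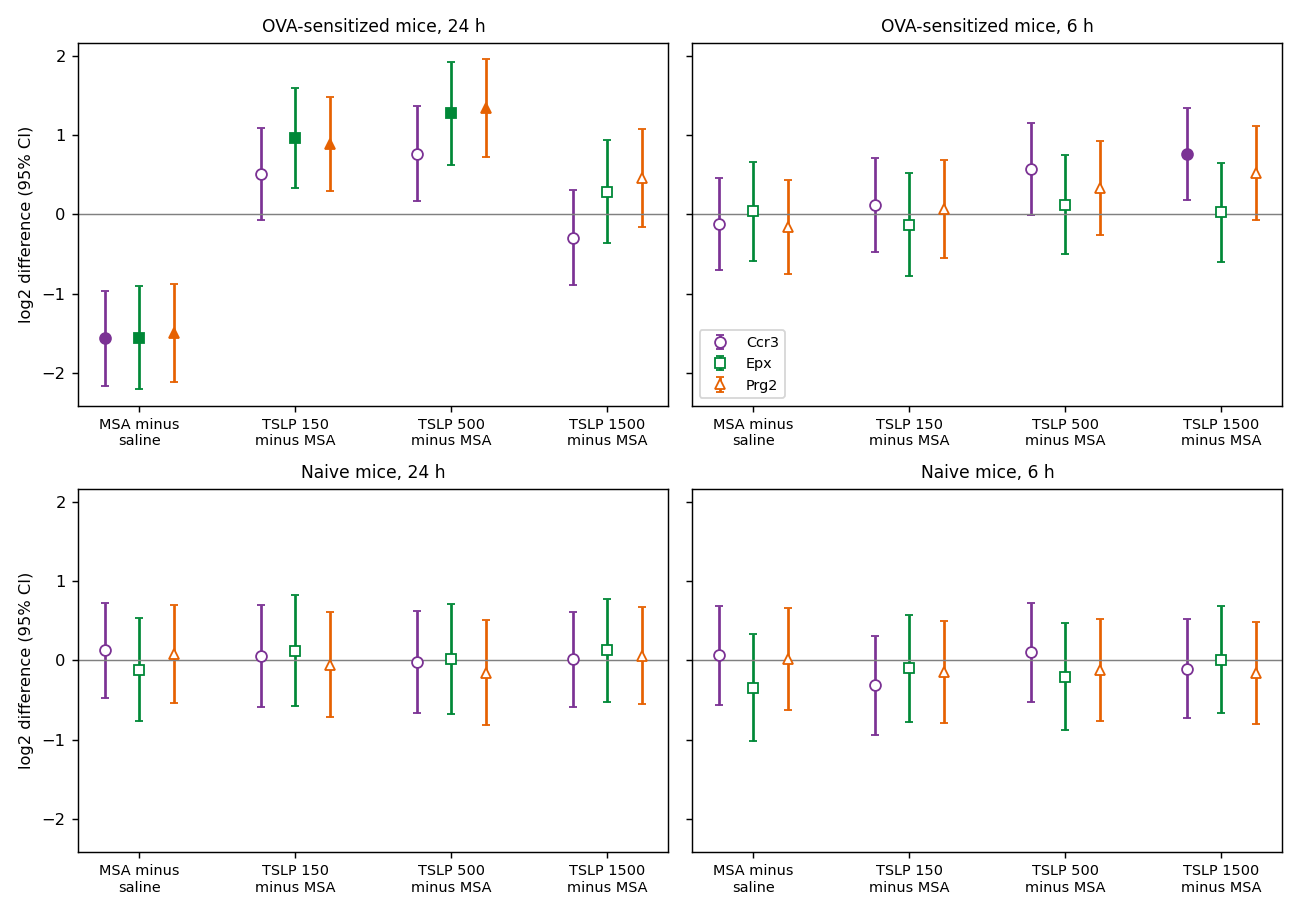
Difference from 0.1% MSA (log2, TSLP minus MSA, and MSA minus saline) for each gene, with 95% confidence intervals, at 24 h (left) and 6 h (right); OVA-sensitized lungs stand above naive lungs, and filled symbols have an adjusted p under 0.05. At 24 h in OVA-sensitized lungs the MSA minus saline points lie near -1.5 for all 3 genes and the 500 ng points of Epx and Prg2 at 1.27 and 1.34.

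Whether the 1500 ng effect differs between settings was tested directly. In OVA-sensitized lungs the effect on Ccr3 was -1.06 (SE 0.42, adjusted p = 0.0235) at 24 h relative to 6 h, where 25.5% of all genes were called lower. The differences for Epx and Prg2 were 0.26 and -0.057 and were not called. The Ccr3 call was lost with beta-actin as a covariate (-0.13, adjusted p = 0.88), without OVA 1500 ng 6 h animal 5 (-0.92, 0.0523) and without OVA MSA 24 h animal 4 (-0.88, 0.0635). None of the 3 genes was called for the effect in OVA-sensitized minus naive lungs at 24 h (4.42% of all genes called) or at 6 h (31.8%), or for 24 h minus 6 h in naive lungs (17.1%). For OVA-sensitized minus naive lungs at 6 h the Ccr3 value was 0.87 (SE 0.43, adjusted p = 0.111), and it was called in a fit of those groups alone (adjusted p = 0.0476). That fit called 3167 of 13494 genes in either direction.

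Within groups the 3 genes moved together from animal to animal. Each array was taken as its deviation from its group mean, and p-values came from 100000 permutations within groups, with 6 relations tested. Over 76 OVA-sensitized arrays Pearson's r was 0.892 between Epx and Prg2, 0.859 between Ccr3 and Prg2 and 0.773 between Ccr3 and Epx (Spearman's rho 0.873, 0.842 and 0.776; each permutation p = 1e-05, the smallest they can give, and 2e-05 after adjustment). Without the 2 arrays farthest from the median of the first gene r was 0.877, 0.834 and 0.725. Over 73 naive arrays r was 0.318 between Epx and Prg2 (rho 0.293, adjusted permutation p = 0.0142 and 0.0249), and 0.316 without 2 arrays. Ccr3 gave r of -0.06 with Prg2 and 0.05 with Epx there. The points share array quality and the RMA normalization, and naive values vary over a much narrower range.

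**Figure D4:**
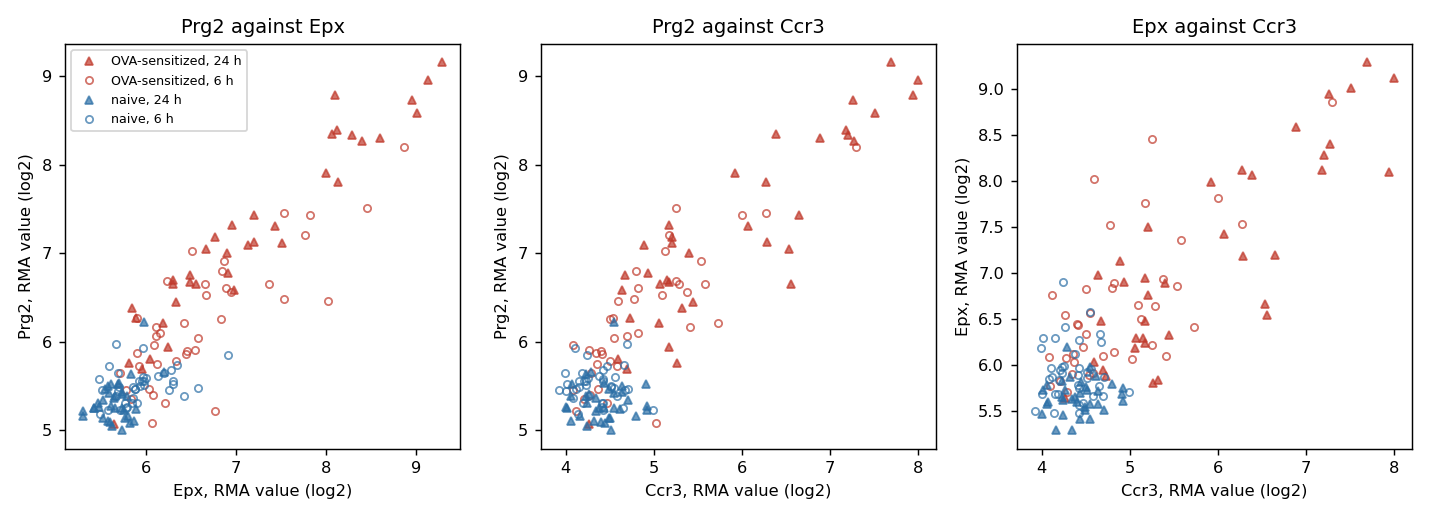
RMA values (log2) of each pair of the 3 genes, 1 point per array, with triangles for 24 h and circles for 6 h and a colour each for OVA-sensitized and naive lungs. Naive arrays form 1 compact cloud at the low end, and OVA-sensitized arrays extend from it to about 9 for Epx and Prg2 along 1 diagonal.

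Other genes of eosinophils gave a mixed picture. Of 13 on that list 4 were measured: Ear3, a ribonuclease gene, Siglecf, a surface lectin that alveolar macrophages share, Alox15, a lipoxygenase that macrophages and epithelium can also make, and Cd300lf, an inhibitory receptor of myeloid cells. In OVA-sensitized over naive saline lungs at 24 h, 3 of the 4 rose, where 14% of all genes did: Alox15 by 2.86 (adjusted p = 3.96e-07), Ear3 by 0.87 (adjusted p = 7.5e-06) and Cd300lf by 0.37 (adjusted p = 0.00609), while Siglecf differed by 0.30 (adjusted p = 0.186). After MSA relative to saline in OVA-sensitized lungs at 24 h, 0 of 4 were called by limma and 1 had an unadjusted p under 0.05, with Alox15 at -1.24 (adjusted p = 0.179). At 500 ng over MSA, 2 of 4 rose against 7.43% of all genes, Alox15 by 1.54 (adjusted p = 0.0201) and Cd300lf by 0.37 (adjusted p = 0.0185). At 1500 ng over MSA, Alox15 rose by 1.58 (adjusted p = 0.00445) and Siglecf fell by 0.99 (adjusted p = 2.31e-06). Of 7 measured alveolar macrophage markers, a list that also holds Siglecf, 4 fell in the same comparison, where 17.5% of all genes fell.

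Signals that draw eosinophils or keep them alive were measured by 17 of 19 genes. In OVA-sensitized over naive saline lungs at 24 h 12 of 17 rose, against 14% of all genes, and the list's median change was 0.55 where that of all genes was -0.028. The eotaxins Ccl11 and Ccl24, ligands of Ccr3, rose by 3.53 (adjusted p = 5.39e-17) and 2.12 (adjusted p = 3.07e-06), the chemokine Ccl8 by 3.74 (adjusted p = 1.97e-21), and the type 2 cytokines Il13 and Il5 by 2.34 (adjusted p = 1.72e-09) and 1.41 (adjusted p = 1.1e-05). At 24 h in OVA-sensitized lungs, 0 of 17 were called by limma after MSA relative to saline and 8 had an unadjusted p under 0.05 (median -0.12 against 0.0073 for all genes). There Ccl11 gave -1.13 (adjusted p = 0.0575) and Ccl24 -1.20 (adjusted p = 0.0898). Over MSA, 4 of 17 rose at 150 ng, 5 at 500 ng and 4 at 1500 ng, where 7.2%, 7.43% and 21% of all genes rose, so the count at 1500 ng lies near the share of all genes. The list medians were 0.20, 0.23 and 0.027 against 0.014, 0.018 and 0.0092 for all genes. Il5 rose by 1.11 (adjusted p = 0.00353) at 500 ng and by 1.07 (adjusted p = 0.000739) at 1500 ng. Ccl11 rose by 1.40 (adjusted p = 0.00247) and 1.08 (adjusted p = 0.00525), Ccl24 by 1.27 (adjusted p = 0.0176) and 1.32 (adjusted p = 0.00306), and Il13 by 1.44 (adjusted p = 0.0014) and 1.24 (adjusted p = 0.000925). At 1500 ng these 4 ligands and cytokines were called higher where Ccr3, Epx and Prg2 were not, and the difference between genes was not tested. The OVA minus naive differences of Ccl11, Ccl24 and Il13 at 24 h were 2.28, 0.97 and 1.31 after MSA, against 3.53, 2.12 and 2.34 after saline. At 6 h, 13 of 17 rose and 1 fell at 1500 ng over MSA, where 24.8% of all genes rose and 35.9% fell (median 0.55 against -0.062), beside the RNA quality difference given above, whose part in this count was not tested.

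**Figure D5:**
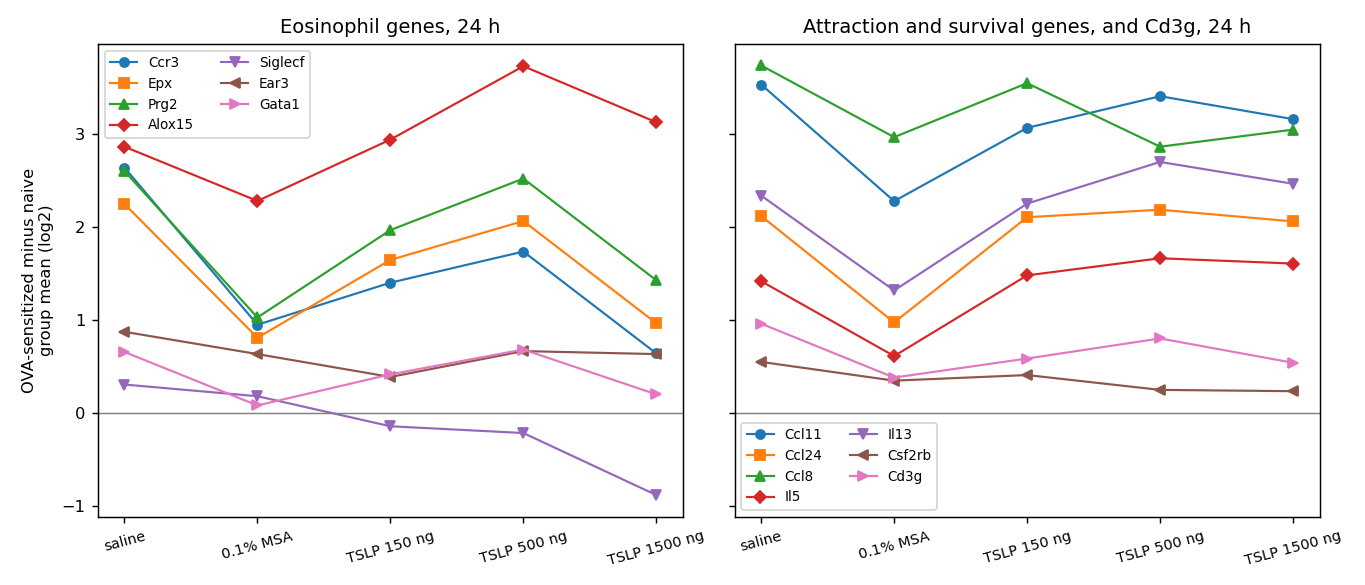
Difference between OVA-sensitized and naive group means at 24 h (log2, OVA minus naive) for each challenge; the left panel shows Ccr3, Epx, Prg2 and other eosinophil genes, the right panel genes of attraction and survival and the T cell gene Cd3g. Points are single differences with no error bar. Ccr3, Epx and Prg2 dip after MSA (0.95, 0.81 and 1.02) and again at 1500 ng (0.64, 0.96 and 1.42); Ccl11 and Il13 are also lower after MSA (2.28 and 1.31) than after saline (3.53 and 2.34) and stand at 3.16 and 2.46 at 1500 ng.

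Transcription factors of eosinophil development were measured by 7 of 9 genes. Gata1 rose in OVA-sensitized over naive saline lungs at 24 h by 0.65 (adjusted p = 0.000636), together with Spi1 (0.38, adjusted p = 0.000808) and Xbp1 (0.25, adjusted p = 0.00477), which eosinophil precursors need, while Gata2 (-0.38, adjusted p = 0.00277) and the GATA cofactor Zfpm1 (-0.30, adjusted p = 0.019) fell. So 3 of 7 rose and 2 fell, where 14% and 16.4% of all genes did. After MSA relative to saline in OVA-sensitized lungs at 24 h 1 of 7 was called lower, against 0.637% of all genes: Gata1, which fell by 0.62 (adjusted p = 0.0324). This call was lost in the fit of those 2 groups alone, which called 0 of 13494 genes. Over MSA, Gata1 rose by 0.48 (adjusted p = 0.0334) at 150 ng, 0.74 (adjusted p = 0.00125) at 500 ng and 0.39 (adjusted p = 0.0434) at 1500 ng, where Epx and Prg2 were not called. Of all genes, 7.2%, 7.43% and 21% were called higher at these doses. The other members were mixed, and their calls are not given. Group means of Gata2, Zfpm1 and Trib1 were below the MSA mean at each dose. Those of Xbp1 were above it at each dose, and Spi1 and Cebpa varied in direction. Gata1 is also a factor of red cell and mast cell precursors.

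Markers of other cells were read beside these results. In OVA-sensitized lungs at 24 h, 4 of 8 T cell markers fell after MSA relative to saline, where 0.637% of all genes did (median -0.56 against 0.0073 for all genes): the transcription factor Gata3 (-0.54, adjusted p = 0.015), the co-receptor Cd4 (-0.63, adjusted p = 0.0229), the receptor subunit Cd3g (-0.68, adjusted p = 0.0303) and Cd5 (-0.82, adjusted p = 0.0348). The mean log2 level of the T cell list was 8.32 to 9.38 in the MSA arrays and 9.15 to 9.57 in the saline arrays. So T cell markers moved with the fall of the 3 genes, and their part in it was not tested. The fit of the MSA and saline groups alone called 0 of 13494 genes, so these T cell calls were lost there too. Over MSA, 5 of 8 rose at 150 ng, 4 at 500 ng and 4 at 1500 ng (7.2%, 7.43% and 21% of all genes), and 6 of 8 rose in OVA-sensitized over naive saline lungs (14%). Of the basophil and mast cell markers, limma called 0 of 9 after MSA relative to saline, with 1 at an unadjusted p under 0.05 (median -0.025 against 0.0073) and list levels of 7.11 to 8.28 in MSA and 7.77 to 8.24 in saline arrays. Over MSA they moved at 500 ng, where 4 of 9 rose and 1 fell, against 7.43% and 4.35% of all genes (median 0.14 against 0.018): the basophil protease Mcpt8 rose by 0.91 (adjusted p = 0.00298), Fcer1a, a chain of the IgE receptor, by 0.69 (adjusted p = 0.0186) and Cd200r3 by 0.71 (adjusted p = 0.0212), and the mast cell protease Mcpt4 fell by 0.72 (adjusted p = 0.0109). At 1500 ng 4 of 9 rose and 1 fell, against 21% and 17.5% of all genes, with Mcpt8 at 0.87 (adjusted p = 0.000765), and at 150 ng 0 rose and 1 fell, with 5 of 9 at an unadjusted p under 0.05. Their list levels were 7.90 to 8.53 at 500 ng against 7.11 to 8.28 after MSA, and their part in the rise of Epx and Prg2 was not tested. Mpo and Prtn3, the 2 measured genes of early granulocytes, and the 8 measured neutrophil genes were not called by limma in the MSA or TSLP comparisons of OVA-sensitized lungs at 24 h, and neither were the 2 measured red cell genes. Of these, 1 early granulocyte gene had an unadjusted p under 0.05 in the MSA and in the 500 ng comparison. Alveolar macrophage markers fell in 3, 2 and 4 of 7 at 150, 500 and 1500 ng over MSA, where 3.26%, 4.35% and 17.5% of all genes fell. Among them Fabp1 fell by 1.53 (adjusted p = 0.000724) and 1.87 (adjusted p = 1.26e-06) at 500 and 1500 ng, and Cidec fell by 1.97 (adjusted p = 7.11e-06) at 1500 ng. The list was not uniform. Car4 had a mean of 12.68 after MSA and of 12.83, 12.86 and 12.83 at 150, 500 and 1500 ng. Plet1 was above its MSA mean at 500 ng only, and the means of Marco, Fabp1, Krt79, Cidec and Siglecf were below MSA at each dose. Calls of higher markers are not given. By limma 0 of 7 were called by limma after MSA relative to saline, where 3 had an unadjusted p under 0.05.

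The genes whose pattern was most like that of the 3 were found with Pearson's r, given as a description since the arrays share their preparation and normalization. Over the 20 group means, among 1681 named genes whose means span at least 1 log2 unit, Prg2 and Epx were each other's near neighbours with r of 0.970, and Prg2 and Ccr3 gave 0.946. The serpin gene Serpina11 came first for Prg2 (0.978), came after Prg2 for Epx (0.959) and followed Prg2 for Ccr3 (0.936). For Ccr3 the first place was the immunoglobulin kappa segment Igkv6-20 (0.955), and Slc16a6 (0.930) and Cd3g (0.926) followed. Epx and Prg2 shared Edem1, a gene of glycoprotein quality control (0.945 and 0.968), and Akr1cl (0.942 and 0.963). Epx also had the chemokine receptor Cxcr6 (0.945), and Prg2 had Rgs1, a brake on G protein signals (0.958). Over the deviations of all 149 arrays from their group means, among 12800 named genes, Prg2 was first for Epx (0.858) and for Ccr3 (0.797), and Epx was first for Prg2. Epx came next for Ccr3 (0.722), while Ccr3 was not among the 5 nearest genes of Epx. Serpina11 was in the next place for Epx (0.804) and for Prg2 (0.815), ahead of Ccr3, and came after Prg2 and Epx for Ccr3 (0.713). The other near genes were Chst13 (0.647) and Ctse (0.629) for Ccr3, Pdcd1lg2 (0.757), Slamf8 (0.755) and Ccl24 (0.753) for Epx, and Edem1 (0.739) and Slamf8 (0.724) for Prg2.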

How the data were processed

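The labels' protocols name a 3'IVT kit for the lung RNA. The authors deposited 1 log2 value per probe set and array, and the submitters' processing notes name RMA, which normalizes between arrays and summarizes probes (version not given in the sources used here). There were 26166 probe sets on 149 arrays; 0 columns of samples were left unused. Probe sets were named through the platform annotation: 22892 name 1 gene, 260 name several and 3014 are not listed. The probe set with the highest mean stood for a gene.

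limma 3.58.1 in R 4.3.3 was fitted with 1 mean per group over all arrays (residual df 129, prior df 2.88), and 47 contrasts were tested with Benjamini-Hochberg adjustment over 13494 genes. Correlations used Python 3.11.15 with scipy 1.17.1. The code was tested on simulated data. Depth has no meaning for RMA values, so the number of arrays and their spread limit the precision. The labels give 1 animal per array.

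The animal number in the labels does not pair the groups: deviations of animals with the same number had a mean correlation of 0.0027 (1314 pairs), and those with other numbers 0.0034 (9226 pairs). The alternatives were the animal number as a block, array weights, quantile normalization, a robust prior with a trend, leaving out arrays with gullet keratins or each array in turn, beta-actin as a covariate, a fit of the compared groups alone, and saline in place of MSA. The comparison of 1500 with 500 ng and the fits that left out 1 array for single comparisons were chosen after seeing the data. Named were the 3 members in every comparison, up to 4 genes with the smallest p of each marker list, any member of the eosinophil lists, and the 5 genes nearest each member by either measure of likeness. The members and lists were chosen with earlier results of these data known.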

Additional observations from a re-analysis of the deposited data

Results flagged for a closer look

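Within groups of 4 to 10 arrays, a highest or lowest value was marked where its gap to the next array took up an unusual share of the group's range by Dixon's 95% limits. This marked 6 of 60 combinations of gene and group, where chance marks about 1 in 20. The 60 combinations are not independent, since the 3 genes share arrays and moved together within OVA-sensitized groups. So no excess over chance is read from the count. Animal 4 of the OVA-sensitized 500 ng group at 6 h was marked for Ccr3 at 7.30, with the next array at 5.58, and for Prg2 at 8.20, with the next at 6.65, and its Epx of 8.86 was also the highest of that group. Animal 3 of the OVA-sensitized 1500 ng group at 24 h was marked as the lowest for Ccr3 at 4.68, next to 5.06. For Epx, animal 4 of the OVA-sensitized MSA group at 6 h was marked at 8.02 (next 6.94), animal 7 of the OVA-sensitized 150 ng group at 6 h at 8.46 (next 6.84), and animal 5 of the naive 1500 ng group at 6 h at 6.42 (next 5.98).

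The test of a difference between effects passed the threshold in 3 cases. The effect of 1500 ng of TSLP on Ccr3 in OVA-sensitized lungs was -1.06 at 24 h relative to 6 h. With beta-actin as a covariate it was -0.13 and was not called (limma adjusted p = 0.88). The effect of OVA sensitization after saline was larger at 24 h than at 6 h by 2.33 for Ccr3 and by 1.98 for Prg2. The Prg2 call lay at the threshold (limma adjusted p = 0.04999) and was lost in 25 of 31 fits that left out 1 array.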

How the results depend on the processing

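Quantile normalization, array weights, the trended prior and the replicate block left 156, 144, 160 and 155 of 162 results the same. Leaving out the arrays with gullet keratins left 158 the same, beta-actin as a covariate 146 and the fit of the compared groups alone 131. Saline as comparator left 29 of 39 the same, and leaving out 1 array 530 of 612. The 162 and 39 results hold both single tests of the 3 genes and counts of comparisons called per gene. The mean of all probe sets gave the same values, since each gene has 1 probe set. The filter on the dimmest 40% of genes removes all 3 genes and gives no value.

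Some of the counts of comparisons called that moved are given next, and the cause was not tested. The list is not complete, and the counts for OVA over naive are not in it. TSLP over MSA (12 comparisons, called in 1 for Ccr3 and 2 each for Epx and Prg2): array weights gave 3 for Ccr3, quantile normalization 1 for Prg2, beta-actin 0 for Ccr3, the compared groups alone 0 for Epx and Prg2, and saline as comparator 2, 1 and 1. MSA over saline (4 comparisons, 1 called for each gene): the compared groups alone gave 0 for each. For 24 h over 6 h (10 comparisons, called in 4 for Ccr3 and 2 for Epx): beta-actin gave 1 for Ccr3 and 1 for Epx, and the compared groups alone 2 for Ccr3. Differences of effects (6 comparisons; 2, 0 and 1): Prg2 gave 0 with quantile normalization, the trended prior, beta-actin or without gullet arrays, Epx gave 1 with array weights, and Ccr3 gave 1 with beta-actin. Dose slopes (4 comparisons, 0 called): Ccr3 gave 2 and Epx 1 with array weights, and Ccr3 gave 1 without gullet arrays. For 1500 over 500 ng (called for Ccr3 and Epx), array weights gave 1 for Prg2 and the compared groups alone 0 for Ccr3. With the replicate block the counts were 1 for the Epx differences of effects, 1 for the Ccr3 slopes and 1 for Prg2 at 1500 over 500 ng, and no called value lost its call.

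Single values behind these counts are as follows. With array weights Prg2 was called at 1500 ng over MSA in OVA-sensitized lungs at 24 h (0.68) and Epx in OVA-sensitized over naive lungs after MSA at 24 h (0.74). Array weights called 6892 and 2328 of 13494 genes in these 2 comparisons, in either direction. With beta-actin as a covariate Ccr3 at 1500 ng over MSA at 6 h was 0.019. In a fit of the groups alone, MSA over saline at 24 h gave -1.56, -1.56 and -1.50 for Ccr3, Epx and Prg2, and OVA over naive after MSA at 24 h gave 0.95 for Ccr3 and 1.02 for Prg2, none of them called. Against saline in OVA-sensitized lungs at 24 h, Epx and Prg2 turned negative: -0.59 and -0.61 at 150 ng, -0.28 and -0.16 at 500 ng, and -1.27 and -1.03 at 1500 ng, where Ccr3 was -1.86.

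Without 1 array at a time, in OVA-sensitized lungs at 24 h, MSA over saline ranged from -1.74 to -1.40 for Ccr3, -1.80 to -1.33 for Epx and -1.70 to -1.28 for Prg2, and OVA over naive after MSA from 0.77 to 1.11 for Ccr3 and 0.82 to 1.21 for Prg2. Ccr3 at 1500 ng over MSA at 6 h ranged from 0.63 to 0.88.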
